A study of Aspergillus niger with 6 samples.

Results

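The genes described here encode short-chain dehydrogenases and reductases of the filamentous fungus Aspergillus niger. They were chosen by domain, as genes whose PFAM annotation holds adh_short or adh_short_C2. Of 11910 genes in the deposited table, 229 carried such a domain. Left out were 42 that the table types as polyketide or nonribosomal peptide synthases or hybrids of these, and 1 further gene. The remaining 186 genes were divided by their KEGG annotation into 50 named fabG and 136 others. RNA of mycelium was sequenced in 6 libraries, 3 labelled as the control strain MA234.1 and 3 as delta-rpnR, a strain without the predicted transcription factor gene rpnR. Both strains were grown from conidia for 16 h at 30 °C in 300 ml Transformation Medium with 1% glucose and then for 4 h in 150 ml Minimal Medium with 25 mM xylose. The series' title ties rpnR to FlbA, protein secretion and stress resistance, and the design text speaks of duplicate samples where the labels number 3 per strain. The labels give no further alleles of MA234.1, and whether the deletion strain is 1 clone is not given in the sources used here.

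Short-chain dehydrogenases and reductases bind NAD(H) or NADP(H) in a Rossmann fold and move a hydride between the cofactor and a carbonyl or hydroxyl group of the substrate. Their substrates include fatty acyl chains, sterols, sugars, aldehydes and intermediates of pigments and toxins, and filamentous fungi carry large families of them. The name fabG belongs to the bacterial 3-oxoacyl-[acyl-carrier protein] reductase, which performs the first reduction in each round of fatty acid elongation. In fungi the cytosolic fatty acid synthase carries that reductase activity within a large multidomain protein, so that for most fungal genes the name marks a sequence resemblance, with the substrate unknown. No gene in the group has a symbol in the table, and genes are given here by protein number.

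Each gene had 1 expression value per strain, read as the authors' FPKM, a count of fragments divided by transcript length and by the mapped total. It combines the libraries of a strain. No standard deviation, replicate number or counting interval can therefore stand beside a value, and the depth of the libraries is unknown. A gene was called when the q-value of the strain comparison in the authors' deposited table was under 0.05, and "rose" and "fell" are used only of called genes. A q of 1 was read as a gene the authors did not test. Such genes were 58 of the 186, all at or below 1.10 FPKM in both strains, and 128 were tested. Over all genes the FPKM summed to 828095 for MA234.1 and to 872090 for delta-rpnR. The members are close relatives of each other, so fragments that several of them share may have been divided among them by the authors' counting, and single values carry that uncertainty. In RNA from whole mycelium, fewer cells of a type and less RNA per cell cannot be told apart. The strain labels were not checked through rpnR, which is not analysed here.

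More short-chain dehydrogenase and reductase genes rose than fell in the deletion strain. Of the 128 tested genes, 21 (16.4%) were called higher and 4 (3.12%) lower, where 3.29% of all 9234 tested genes were called higher and 3.25% lower (6.54% in either direction). Values lay above the control for 99 of the 128 and below it for 29. The median log2 ratio of deletion over control, on the log2(FPKM + 1) scale, was 0.46, against 0.02 over all tested genes. With the untested genes included the median over all 186 was 0.18, since these lay near 0 in both strains. Together the 186 genes held 0.803% of the FPKM of all genes in MA234.1 and 1.18% in delta-rpnR. All 25 called genes changed by at least 2-fold, and for 7 of them the authors' deposited table gives 0.0027, its lowest q. At a q under 0.01, 8 of the 128 were higher and 3 lower, against 1.21% and 1.38% of all tested genes. By the authors' own flag, which adds a fold of at least 2 and a value of 10 or more in 1 strain, 19 were higher and 3 lower, against 2.73% of all tested genes in each direction. Among the 98 members with a mean of both strains of at least 5 FPKM, 20 were higher and 4 lower, against 3.67% and 3.55%.

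**Figure D1:**
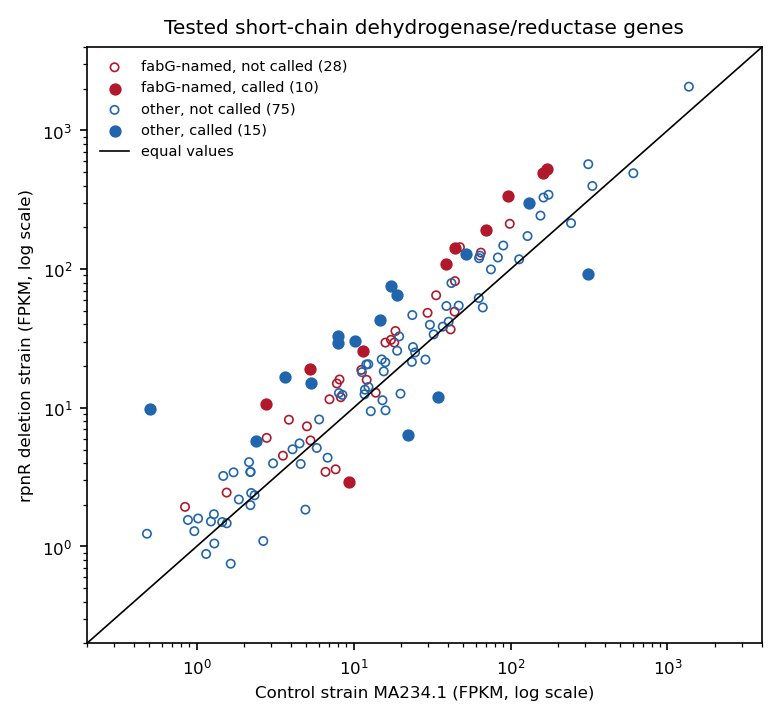
Authors' FPKM of the 128 tested genes in the control strain (x axis) and the rpnR deletion strain (y axis), both on log scales, with 1 point per gene. Filled points are called genes, red points carry a fabG product name, and 99 of the 128 points lie above the line of equal values.

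Values of the tested fabG-named genes lay mostly above the control. Of 38 tested, 9 rose (23.7%) and 1 fell (2.63%), and 33 exceeded the control value. Their median log2 ratio was 0.85, or 0.67 over all 50. Summed over the 50 genes, the level was 2.43-fold that of the control, and 73.4% of the difference came from the 9 genes that rose. The rest also lay mostly above the control. Without those 9, the remaining 41 genes summed to 1.77-fold the control and the median of the 29 tested among them was 0.67. The 12 untested fabG-named genes were at or below 1.10 FPKM in both strains. Of the 16 fabG-named genes with a mean below 5 FPKM, tested or not, 8 lay above the control, 6 below it and 2 were listed at 0 in both strains.

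The fabG-named genes that rose to the highest values in the deletion strain are given first. Protein 177736 rose from 171 FPKM in MA234.1 to 527 FPKM in delta-rpnR. Protein 1108468 rose from 162 to 494 FPKM. Protein 1141260 rose from 96.0 to 334 FPKM, a log2 ratio of 1.79. These genes share the 3 domains adh_short, adh_short_C2 and KR, the last named for the ketoreductase of polyketide synthases. Protein 1148249 rose from 69.7 to 190 FPKM. Of the 5 fabG-named genes with a mean of both strains of at least 100 FPKM, these 4 rose. The fifth, 1228466, was at 98.9 and 212 FPKM and had a q of 0.268 in the authors' deposited table. The mean includes the value in the deletion strain, so a rise itself moves a gene towards this cut. In MA234.1 alone, only 177736 and 1108468 were above 100 FPKM.

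At intermediate levels, 1127363 rose from 44.3 to 141 FPKM. Protein 1111271, which the table places among the decorating genes of secondary metabolism cluster 61, rose from 39.0 to 109 FPKM. At low levels, 1180134 increased from 5.25 to 19.0 FPKM. Protein 1181077 increased from 2.76 to 10.7 FPKM. The folds of the 9 genes that rose lay between 2.23 and 3.87, with a median of 3.08, while their levels in the deletion strain ran from 10.7 to 527 FPKM.

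Of the called genes, 2 combine a fabG name with domains of a transcription factor, and they moved in opposite directions. Protein 1153084, with a fungal transcription factor domain and C2H2 zinc fingers beside its short-chain dehydrogenase domains, fell from 9.41 to 2.94 FPKM and was the single fabG-named gene called lower. Protein 1218496, with a Zn2Cys6 cluster domain, rose from 11.6 to 25.8 FPKM, the smallest fold of the 9. Such a mixture of domains can be 1 protein or neighbouring genes joined in 1 gene model, which was not tested. The other 2 members with such a domain, 1096072 and 1153258, named outside the rule, were below 0.6 FPKM in both strains and not tested by the authors.

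Among fabG-named genes that were not called, 1141739 came nearest to the threshold, at 47.6 and 144 FPKM with a q of 0.0533 in the authors' deposited table. Protein 1188394 was at 64.7 and 132 FPKM, 1146519 at 44.3 and 81.9 FPKM, and 1113892 at 33.6 and 64.8 FPKM. All 4 values in the deletion strain lay above the control. Of uncalled fabG-named genes with at least 5 FPKM in 1 strain, the 3 furthest below it were 1015414 (7.69 and 3.60 FPKM), 1211948 (6.63 and 3.45 FPKM) and 1180638 (41.5 and 36.8 FPKM).

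**Figure D2:**
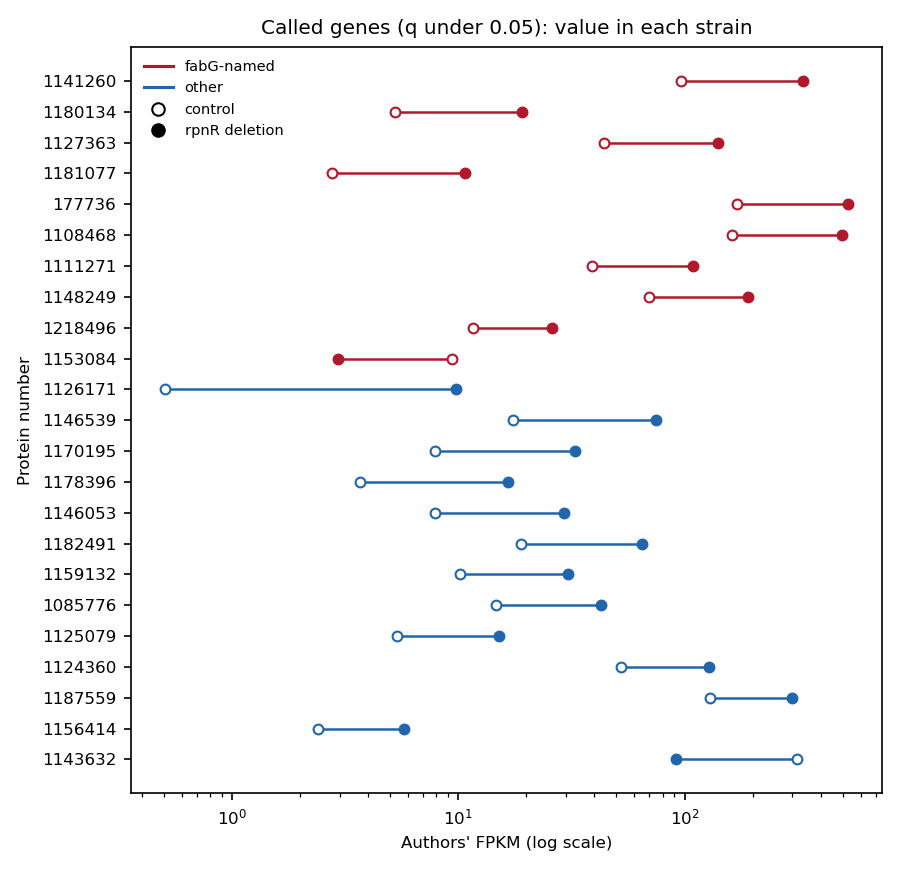
Authors' FPKM (x axis, log scale) of 23 of the 25 called genes (y axis, protein number), with the control as an open and the deletion strain as a filled circle joined by a line. Red lines are fabG-named genes, of which 9 rose and 1 fell, and blue lines are others, of which 12 that rose and 1 that fell are drawn.

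The 136 genes without a fabG name showed the same direction with a smaller median. Of 90 tested, 12 rose (13.3%) and 3 fell (3.33%). The value exceeded the control for 66 and was lower for 24, and the median log2 ratio was 0.32, or 0.11 over all 136. Their summed level was 1.36-fold the control. A large part of that sum was 1 gene, 1162442, with an epimerase-type domain listed first and a place in secondary metabolism cluster 15. It held 25.1% of the control sum, was at 1369 and 2070 FPKM, and missed the threshold. The difference between the fabG-named genes and the others is a description of these values, and no test of it was made.

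**Figure D3:**
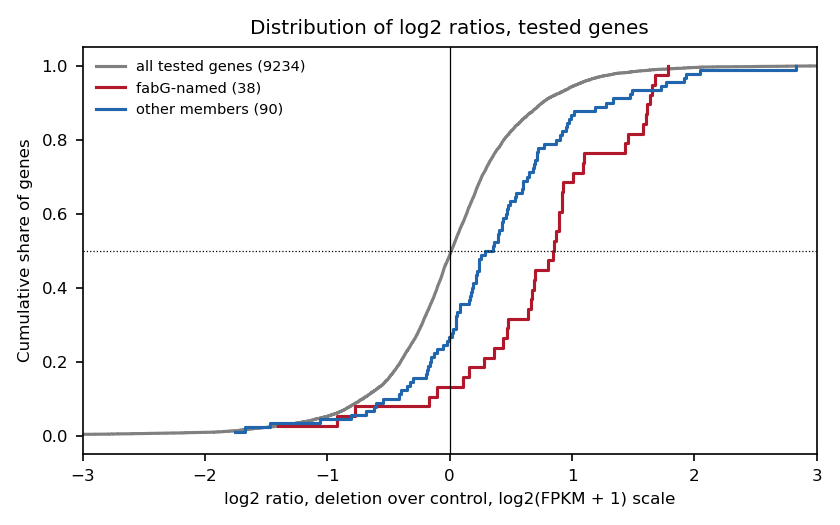
Cumulative share of genes (y axis) by log2 ratio of deletion over control on the log2(FPKM + 1) scale (x axis) for all 9234 tested genes, 38 fabG-named and 90 other tested genes. The dotted line crosses the curves at their medians of 0.02, 0.85 and 0.32, and both coloured curves lie to the right of the grey one over most of their length.

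Counts by product, domain, cluster and pathway, here and below, stand beside 3.29% of all tested genes called higher and 3.25% lower. By product name, genes named as carbonyl reductases or retinol dehydrogenases numbered 15, of which 9 were tested and 2 rose. The CBR1-type carbonyl reductase 1146539, an enzyme that reduces ketones and quinones with NADPH, rose from 17.4 to 75.2 FPKM. The second CBR1-type gene, 1171410, is named outside the rule, with its values known, and stood at 128 and 173 FPKM without a call. A gene named retinol dehydrogenase RDH12, 1085776, rose from 14.7 to 42.7 FPKM and belongs to the decorating genes of cluster 23. Retinol dehydrogenase is the name of the animal enzymes, and the substrates of the fungal proteins are not known from the table.

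GRE2 of yeast is an NADPH-dependent reductase of methylglyoxal and other aldehydes and is known as a stress-induced gene there. All 3 GRE2-type genes were tested, and 2 rose. Protein 1124360 rose from 52.3 to 129 FPKM. Protein 1156414 rose from 2.40 to 5.77 FPKM. The third, 1114648, also named outside the rule, had 19.0 and 25.8 FPKM and no call.

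The GRE2 type belongs to the extended branch of the fold, and the table lists an epimerase-type domain first in 14 genes. Of these 10 were tested, 2 rose and 2 fell. Of the 164 genes with adh_short, adh_short_C2 or KR listed first, 112 were tested, 18 rose and 2 fell.

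Genes that a list of product names counted as steps in lipid metabolism, the HSD17B types named for steroids among them, numbered 17 without a fabG name. Of these 9 were tested, 1 rose (11.1%) and none fell, where 3.29% of all tested genes were called higher and 13.3% of the short-chain genes without a fabG name. Their median log2 ratio was 0.05. The gene that rose, 1170195, is named HSD17B10, in animals a mitochondrial 3-hydroxyacyl-CoA dehydrogenase that also acts in isoleucine breakdown, and went from 7.90 to 32.9 FPKM. The KAR or IFA38 type 3-oxoacyl-CoA reductase of very-long-chain fatty acid elongation, 1151842, was at 66.6 and 52.9 FPKM. The 3-dehydrosphinganine reductase 1168700, which makes the sphingoid base of ceramides, was at 23.5 and 21.4 FPKM. The peroxisomal 2,4-dienoyl-CoA reductase 1173244, which serves the breakdown of unsaturated fatty acids, was at 42.0 and 79.4 FPKM. None of these 3 was called. The sterol-4alpha-carboxylate 3-dehydrogenase 1168378, named outside the rule, was not in that list and is counted below among other product names. It was at 5.83 and 5.13 FPKM and not called.

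AYR1-type genes, named for the yeast reductase of 1-acyl-dihydroxyacetone phosphate in the synthesis of phosphatidic acid, numbered 8, with 4 tested and none called. The most abundant were 1141435 at 40.3 and 41.8 FPKM and 1161049 at 39.0 and 54.2 FPKM, while 1118324 was at 16.0 and 9.59 FPKM. The HSD17B1-type gene 1147024 was at 114 and 118 FPKM. The HSD17B8-type gene 37946 and the FASN-type gene 1132477 are listed at 0 in both strains, and the FASN-type gene 1153119 at 0 and 0.0126 FPKM. The second 3-dehydrosphinganine reductase, 136287, was at 0.281 and 0.342 FPKM. These low genes were not tested by the authors.

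The kduD type, named for a sugar acid as substrate, had 3 genes, 2 of them tested. No gene of the group is named for xylulose or xylose, the sugars of the second medium's carbon route. The 2-deoxy-D-gluconate 3-dehydrogenase 1126171 rose from 0.505 to 9.74 FPKM, a fold of 19.3, the largest of the 21 genes that rose. It stayed under 10 FPKM in both strains, so the authors' own flag, which asks for 10 or more in 1 strain, does not mark it. The other tested kduD-type gene, 1156802, had 19.5 and 32.7 FPKM and no call.

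The largest group by product was that of 77 genes with no KEGG product, of which 51 were tested, 5 rose and 1 fell. Protein 1143632, with adh_short_C2, adh_short and KR domains, fell from 314 to 92.1 FPKM, a log2 ratio of -1.76. At a comparable level 1187559, with the same 3 domains, rose from 130 to 299 FPKM. Protein 1182491 rose from 18.9 to 64.8 FPKM. For 1146053 the values were 7.92 and 29.4 FPKM, and for 1159132 they were 10.2 and 30.5 FPKM, both called higher. Protein 1178396, a decorating gene of cluster 66, rose from 3.67 to 16.6 FPKM. Abundant genes without a call included 1143936 at 175 and 344 FPKM and 51907, of cluster 15, at 162 and 328 FPKM, both among the 3 largest ratios of the uncalled genes without a fabG name that reached 5 FPKM in 1 strain. A protein with 2 adh_short domains and a MaoC dehydratase domain, 1115373, was at 63.8 and 125 FPKM. That arrangement is the one known from the multifunctional enzyme of peroxisomal beta-oxidation. Among uncalled genes with at least 5 FPKM in 1 strain, those furthest below the control were 1118324, given above, 1187510 (19.9 and 12.6 FPKM) and 1181607 (6.83 and 4.37 FPKM).

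Among the 18 genes with other product names, 1 of 13 tested rose (7.69%), where 3.29% of all tested genes were called higher. It was 1125079, named phenol 2-monooxygenase, which lists FAD-binding and phenol hydroxylase domains before the short-chain dehydrogenase domains and went from 5.39 to 15.1 FPKM. The HPGD-type gene 1180423, named for the animal enzyme that oxidises prostaglandins, stood at 313 and 571 FPKM without a call. All 3 tested HPGD-type genes lay above the control, with a median log2 ratio of 0.71. Protein 1117798, which lists peptidase M16 domains first, had 332 and 398 FPKM and no call.

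Counts were also taken by domain, beside the 3.29% of all tested genes called higher and 3.25% called lower. Of the 38 tested fabG-named genes, all carried both adh_short and adh_short_C2. Of 38 other tested genes with both domains, 7 rose (18.4%) and 1 fell, with a median log2 ratio of 0.43. Of 51 tested genes with adh_short and no adh_short_C2, 4 rose (7.84%) and 2 fell, with a median of 0.22. The 1 tested gene with adh_short_C2 and no adh_short, 1159132, was among those that rose.

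The same counts were taken by level of expression, the mean of both strains. That mean includes the value in the deletion strain, so a rise itself moves a gene towards a higher level. At a mean of 5 to 20 FPKM, 7 of 40 tested genes of the group rose and 2 fell. Of all tested genes at that level 3.39% were called higher and 3.22% lower. At 20 to 100 FPKM, 8 of 39 rose and 1 fell, against 3.99% called higher and 2.80% lower. At 100 FPKM and above, 5 of 19 rose and 1 fell, against 3.59% and 6.04%. Below 5 FPKM, 1 of 30 rose and none fell, against 1.83% and 2.09%. The fabG-named genes were not spread over the levels as the others were: 16 of the 50 and 72 of the 136 others had a mean below 5 FPKM. Below 5 FPKM, 0 of 4 tested fabG-named genes and 1 of 26 others rose. At 5 to 20 FPKM these counts were 3 of 16 and 4 of 24, and at 20 to 100 FPKM 2 of 13 and 6 of 26. At 100 FPKM and above they were 4 of 5 and 1 of 14. Of these 4 fabG-named genes, 1141260 and 1148249 were below 100 FPKM in MA234.1. The larger share of calls among fabG-named genes was thus not seen at every level.

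Genes in predicted secondary metabolism clusters numbered 16, all typed as decorating in the table. Of these 12 were tested, 3 rose (25.0%, against 3.29% of all tested genes) and none fell. All 12 exceeded their control value, with a median log2 ratio of 0.72. They came from different clusters, with 1 pair in cluster 15 (1162442 and 51907) and 1 pair in cluster 61 (1111271, which rose, and 1222994, named with its values known, at 23.7 and 46.6 FPKM). Outside the clusters 18 of 116 tested genes rose and 4 fell, with a median of 0.44. Predicted transmembrane segments were given for 10 genes, among them 1170195, which rose, and a predicted secretion signal for 2, of which 1 was tested and not called.

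Because fabG-named genes make up most of the KEGG pathways that hold them, calls in those pathways repeat the same genes. The same 38 tested fabG-named genes were 65.5% of the tested genes of fatty acid biosynthesis and 71.7% of those of unsaturated fatty acid synthesis. They gave 9 of the 11 rises in the first pathway and 9 of the 10 in the second. The genes of these pathways named next were chosen with their values known. Of the 13 tested genes of fatty acid biosynthesis without a short-chain dehydrogenase domain, 2 rose (15.4%) and 1 fell (7.69%), with a median log2 ratio of 0.28. Over all tested genes 3.29% were called higher and 3.25% lower. The genes that rose encode long-chain acyl-CoA synthetases, which activate free fatty acids, and were 1185548 (from 13.1 to 61.5 FPKM) and 1176408 (from 18.3 to 38.8 FPKM). KEGG also places both in fatty acid degradation, as it does 1090892, another such synthetase, whose log2 ratio of 0.28 is the median given. Acetyl-CoA carboxylase (1183000), which commits carbon to fatty acids, was at 497 and 519 FPKM. It was not called. The beta subunit of fatty acid synthase is the product name of 5 genes, of which 4 were tested. The most abundant, 1116571, was at 147 and 149 FPKM and not called. The gene of this pathway set that fell was another of them, 1130281, which went from 5.16 to 0.291 FPKM. In unsaturated fatty acid synthesis, 14 tested genes had no such domain. Of these 1 rose (7.14%), an acetyl-CoA acyltransferase of beta-oxidation (1097906, from 44.3 to 109 FPKM), and none fell, with a median of 0.04. The delta-9 desaturase 1173782 had 958 and 1002 FPKM and no call.

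Other families chosen by NAD(P)-binding domains, without a short-chain dehydrogenase domain, showed similar counts. Of 66 tested medium-chain dehydrogenases 10 rose and none fell, with a median log2 ratio of 0.59. Of 33 tested aldo-keto reductases 7 rose and 1 fell, with a median of 0.74. Of 28 tested aldehyde dehydrogenases 5 rose and none fell, with a median of 0.62. Of 62 tested genes with epimerase, NmrA or related domains 7 rose and 4 fell, with a median of 0.29. The families were counted with their polyketide and nonribosomal peptide synthase types, which the short-chain group leaves out, and 3 of these 4 falls were of such types. Without them, 7 of 56 rose and 1 fell. Over the 4 families, 29 of 188 tested genes rose (15.4%) and 5 fell (2.66%), beside 16.4% and 3.12% for the short-chain genes. With the synthase types left out there too, a count made after seeing the data, 29 of 182 rose (15.9%) and 2 fell (1.10%). No test of a difference between families was made.

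**Figure D4:**
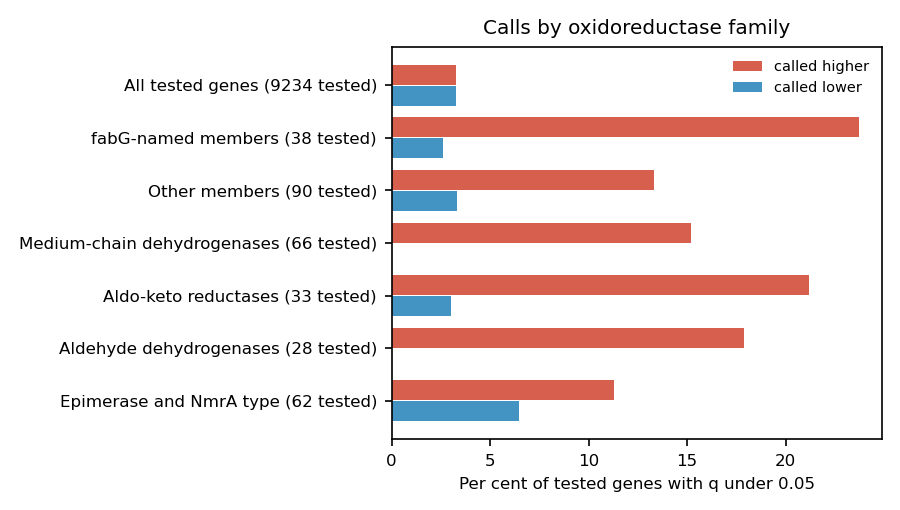
Per cent of tested genes called higher (red bars) and lower (blue bars) in the deletion strain (x axis) for all tested genes, both groups of short-chain genes and 4 other families chosen by NAD(P)-binding domains, without a short-chain dehydrogenase domain (y axis). All 6 groups below the top one exceed the 3.29% of all tested genes called higher, from 11.3% of the epimerase and NmrA type, synthases included, to 23.7% of the fabG-named genes.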

How the data were processed

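The labels give 3 control and 3 rpnR deletion libraries, which the deposited table combines into 1 value per gene and strain. The unit was read as FPKM (the header says only that it is an expression value) because the submitters' processing notes name Cuffdiff 2.2.1 (with CASAVA 1.8.3, Trimmomatic, TopHat2 and Cufflinks, without their roles). The genome build is not given in the sources used here. As deposited, the q-value is the authors' adjusted p-value for the comparison of the strains. Their flag (q of at most 0.05, fold of at least 2, a value of 10 or more in at least 1 strain) was checked by recomputing it, with 0 differing rows. From these values log2 ratios with a pseudocount of 1, counts of calls and medians were computed over the whole table (Python 3.11.15, pandas 2.3.3), and the counting was tested on simulated data. Fold changes on that scale are understated for low genes. No test of replicates was possible, and p-values measure only the spread the authors' tool saw between libraries whose origin in separate cultures the labels do not state. The members and lists were chosen with earlier results of these data known. Genes named are all called members, the 5 most abundant uncalled ones and the 3 with the largest uncalled ratios in each direction per group (minimum 5 FPKM in either strain), and the 2 most abundant per lipid or sugar product. Exceptions are marked. A few of these genes are counted but not reported singly here. Alternatives were another q threshold, the authors' flag, other pseudocounts, centring, a minimum level and other domain rules. The files hold no sequences or coordinates for these protein numbers.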

Additional observations from a re-analysis of the deposited data

How the results depend on the processing

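The number of genes that rose (21 of 128 tested) was 8 of 128 at a q under 0.01 and 19 of 128 by the authors' flag. It was 20 of 98 for genes with a mean of at least 5 FPKM. With members chosen by adh_short or adh_short_C2 alone it was 20 of 127 or 17 of 77. At a q under 0.01, 3 fabG-named and 5 other genes rose, and 0 fabG-named genes fell. By the flag, 0 fabG-named genes fell. Of the 4 genes that fell, 2 remained with adh_short_C2 alone, 1 of them without a fabG name. A further alternative, chosen after seeing the data, kept genes with a short-chain domain listed first, of which 2 fell, 1 without a fabG name. With synthase types left out of the other families, likewise chosen after seeing the data, 2 of their genes fell where 5 did with them, and 1 epimerase-type gene fell in place of 4. Medians of the log2 ratio for all, fabG-named and other genes were 0.33, 0.63 and 0.18 with a pseudocount of 5. They were 0.18, 0.67 and 0.11 over all members, tested or not, also chosen after seeing the data. The median over all tested members was 0.60 at a mean of at least 5 FPKM. It was 0.67, and 0.46 for the others, with adh_short_C2 alone. No direction changed in any of these alternatives. Of 51 named genes 23 were called, and of these 23, 14 lost their call at a q under 0.01 and 3 by the flag. No paired analysis was possible because the table holds 1 value per strain and none per library, and for the same reason leaving out each replicate was not run. The depth of the libraries is unknown.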
